A study of Mus musculus with 4 samples.

Results

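The 9 serotonin receptor genes described here are Htr1a, Htr1b, Htr1d, Htr1f, Htr2a, Htr2c, Htr4, Htr6 and Htr7. They were taken by symbol from a spatial count table of 19465 genes in mouse brain, without use of their values. The table came from coronal brain sections that included the striatum, one per mouse, from 2 wild-type mice and 2 mice heterozygous for Celsr3, which encodes an adhesion G protein-coupled receptor. Apart from genotype the mice had no treatment, and their strain, age and sex are not given in the sources used here. The tissue was fixed in formalin and embedded in paraffin, and gene probes were captured on a grid of barcoded spots with Visium CytAssist, so that each spot holds RNA of several cells.

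Serotonin is made by neurons of the brainstem raphe nuclei, whose axons reach nearly all of the forebrain, and most of its receptors are G protein-coupled. Receptors of the Htr1 family couple to Gi and Go proteins and lower cyclic AMP, those of the Htr2 family couple to Gq and raise phosphoinositide turnover, and Htr4, Htr6 and Htr7 couple to Gs and raise cyclic AMP. In spots, fewer cells that express a gene and less of its RNA per cell cannot be told apart.

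The regions just before the transcript starts of Htr1b, Htr1d and Htr6 are shown because these were the 3 receptors called higher in striatal-marker spots. Each run is the 250 bases before a start listed by RefSeq on GRCm38.p6, on the gene's strand and 5′ to 3′. Capitals mark matches to any of 5 motifs on either strand. Htr1b lies on the minus strand at chr9:81633833-81634082, Htr1d on the plus strand at chr4:136423274-136423523 and Htr6 on the minus strand at chr4:139075571-139075820.

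Htr1b: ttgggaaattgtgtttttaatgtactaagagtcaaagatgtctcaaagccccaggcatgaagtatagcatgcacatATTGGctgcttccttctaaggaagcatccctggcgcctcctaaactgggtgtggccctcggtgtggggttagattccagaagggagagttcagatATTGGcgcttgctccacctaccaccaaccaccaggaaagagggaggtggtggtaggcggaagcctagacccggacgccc
Htr1d: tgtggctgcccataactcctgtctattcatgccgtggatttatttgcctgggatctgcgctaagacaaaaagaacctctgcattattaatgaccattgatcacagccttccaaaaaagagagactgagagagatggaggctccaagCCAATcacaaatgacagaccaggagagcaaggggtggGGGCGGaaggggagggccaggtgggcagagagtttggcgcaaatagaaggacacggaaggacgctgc
Htr6: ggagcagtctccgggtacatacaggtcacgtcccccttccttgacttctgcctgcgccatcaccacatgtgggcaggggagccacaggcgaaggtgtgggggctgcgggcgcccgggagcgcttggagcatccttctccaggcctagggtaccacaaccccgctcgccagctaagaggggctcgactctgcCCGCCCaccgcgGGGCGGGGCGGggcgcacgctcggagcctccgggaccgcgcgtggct

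The motifs were the CCAAT box (CCAAT), the GC box (GGGCGG), the TATA box (TATAAA), the E-box CACGTG and the cAMP response element TGACGTCA, and some GC box matches overlap each other. The Htr1b region held 2 CCAAT box matches and no GC box match, and the Htr1d region held 1 of each. The Htr6 region, the richest in G and C of the 3 at 70.8%, held 3 GC box matches and no CCAAT box match. No motif was matched in all 3 regions. Of 27025 promoters searched the same way, 34.5% held a CCAAT box match, 33.0% a GC box match, 13.0% a TATA box match, 6.04% an E-box match and 1.60% a cAMP response element match. A match is a description of the letters only. RefSeq promoter sequences were found for 8 of the 9 receptors.

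Spot names end in a number that splits the spots into 4 barcode sets, and for 0 of them do the labels say which mouse it came from. Wild-type and heterozygous mice were therefore not compared, and all values are given per set with no mean or SD. Sets 1 to 4 held between 2808 and 3445 spots and between 90752475 and 174761560 counts, with set 4 the shallowest. Levels are counts of a gene scaled to 1000000 counts of all genes in the same spots (CPM). Their 95% intervals are exact Poisson intervals, and ratios of levels have exact conditional binomial intervals. Both cover counting error only and do not stand for the spread between mice. Each probe reads part of a transcript, so levels are compared for 1 gene at a time and never between genes.

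Of 12601 kept spots, 10423 were given to an area by the highest score of a list of marker genes that held no serotonin receptor, and 2178 were left without an area. There were 15 areas with at least 30 spots in 2 or more sets, of which 12 had all 4 sets. Adora2a and Pde10a were among the leading genes of the striatal-marker spots, and Lamp5 and Cux2 among those of layer 2/3. Rorb stood high in layer 4, Fezf2 in layer 5 and Ccn2 in layer 6b, and Ttr led the choroid plexus spots. All of these but Ttr were in the marker lists that picked the spots, so their lead there does not check the labels. The layer 6 spots were led by Trbc2, Myl4 and Rprm. The spots picked by a lateral septum list, from sets 2 and 3 only, had 0 of that list's 4 genes among their 10 leading genes and 1 thalamic marker, Prkcd. They are called Lbhd2-rich spots after the gene that led them. Thalamic spots came from sets 1 and 4 (147 and 278 spots) and choroid plexus spots from sets 1 and 3 (62 and 77 spots).

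A receptor was called higher in an area where its CPM there was at least 1.5 times that in all other kept spots of the same set, with the interval above 1, in every set with at least 30 such spots. Lower was the mirror of this rule. Of 135 pairs of a receptor and an area, 19 were called higher and 42 lower. In the 15 areas, 1.34% to 15.9% of all genes tested were called higher and 0.653% to 25.0% lower. In striatal-marker spots 3 of 9 receptors were called higher and 2 lower, beside 5.76% and 15.1% of the 13773 genes whose whole-section mean reached 1 CPM. All 9 receptors passed that minimum.

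In the cortex the receptors were spread over the layers. In layer 2/3, 0 were called higher, beside 3.44% of all genes, and 4 lower, beside 9.08%. In layer 4, 1 was called higher (3.06%) and 3 lower (7.61%). Layer 5 had 1 higher (2.09%) and 5 lower (8.55%), and layer 6 likewise 1 higher (2.43%) and 5 lower (8.24%). Layer 6b had 1 higher (1.34%) and 0 lower (2.71%), and the claustrum spots 2 higher (1.52%) and 2 lower (4.95%). More receptors were called lower than higher in layers 2/3, 4, 5 and 6, and so were more of all genes.

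The areas outside the striatum, the cortical layers and the claustrum also divided the family. Cholinergic basal forebrain spots had 1 receptor called higher (1.84% of all genes) and 2 lower (3.73%). Lbhd2-rich spots had 3 higher (4.32%) and 2 lower (6.72%), and the hypothalamic and preoptic spots 3 higher (6.78%) and 2 lower (7.59%). The thalamic spots had 2 higher (6.11%) and 5 lower (11.7%). White matter had 0 higher (8.47%) and 2 lower (8.92%), the ventricle lining 0 higher (11.6%) and 2 lower (4.79%), and the meninges 0 higher (6.20%) and 1 lower (0.653%). In choroid plexus spots 1 was higher (15.9%) and 5 lower (25.0%). Layer 2/3, white matter, the ventricle lining and the meninges were the areas with no receptor called higher. In these areas 3.44% to 11.6% of all genes were called higher, so 0 of 9 receptors does not set them apart.

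**Figure D1:**
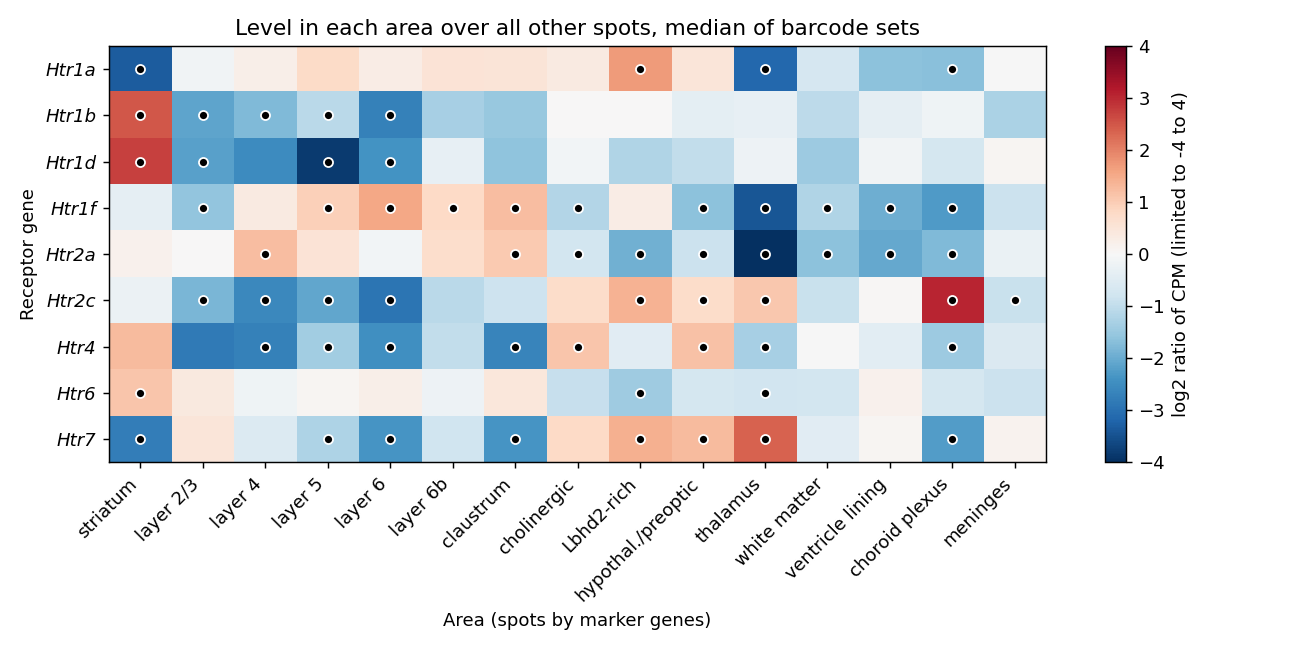
Colour gives, for each serotonin receptor (rows) and each area of marker spots (columns), the log2 ratio of its CPM in the area to that in all other spots, as the median of the barcode sets, limited to -4 to 4. Dots mark the 19 pairs called higher and the 42 called lower. Htr1b and Htr1d are highest in the striatum, Htr7 in the thalamus and Htr2c in the choroid plexus.

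Among the Gi-coupled receptors, Htr1b and Htr1d marked the striatum, Htr1f the deep cortical layers and the claustrum, and Htr1a was nearly lacking from the striatum and the thalamus. Htr1b, a receptor that sits on axon terminals and damps transmitter release, stood at 90.1, 45.1, 73.2 and 38.3 CPM in the striatal-marker spots of sets 1 to 4. In all other spots it stood at 16.7, 8.48, 12.7 and 5.78 CPM. Every striatal value was thus above every value outside the striatum, and the ratios were 5.41, 5.32, 5.76 and 6.63. These spots held 51.5%, 57.9%, 57.2% and 44.4% of all Htr1b counts of their sets, from 10.8% to 20.5% of all counts.

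The cortex was low in Htr1b. In layer 6 it stood at 4.59, 1.89, 4.08 and 1.69 CPM, or 0.112 to 0.175 of the other spots, and it was called lower in layers 2/3, 4, 5 and 6. Layer 5 was the highest of these, at 14.9, 8.34, 8.49 and 4.22 CPM. Cholinergic basal forebrain spots reached 32.2, 14.6, 23.1 and 10.0 CPM, which the striatum exceeded by 2.80 to 3.82 times. With each spot thinned to 10000 counts, 31.7% to 60.1% of striatal-marker spots carried an Htr1b count, against 2.67% to 3.25% of layer 6 spots. Unthinned, these shares were 61.9% to 98.0% and 5.56% to 27.7%.

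Htr1d, the close relative of Htr1b and like it a terminal receptor, was also placed in the striatum. Its values rest on fewer counts, which do not rank the 2 genes by level. It stood at 9.04, 4.39, 7.58 and 8.91 CPM in striatal-marker spots and at 1.14, 1.02, 1.09 and 1.42 CPM elsewhere. The ratios were 7.91, 4.30, 6.96 and 6.27, so set 2 was the lowest in level and in ratio. In layer 5 its 4 sets held 2, 1, 1 and 2 counts in all, or 0.0765 to 0.384 CPM. Thalamic spots held 2.67 CPM in set 1 and 1.57 CPM in set 4, which the striatum exceeded by 3.38 to 5.68 times. Cholinergic spots held 3.90, 1.05, 2.04 and 2.17 CPM, and did not differ from thalamic spots beyond counting error in each shared set. Neighbouring areas below the striatum could not be ordered beyond counting error.

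Htr1a, which acts as the autoreceptor of raphe neurons and as a postsynaptic receptor in the forebrain, was nearly lacking from the striatum. It stood there at 1.12, 2.18, 1.03 and 2.66 CPM, against 12.2, 20.4, 13.5 and 15.4 CPM in other spots. Its ratios of 0.0761 to 0.173 made it called lower in the striatum, as in thalamic spots, at 1.18 and 1.88 CPM. Its highest levels were those of the Lbhd2-rich spots, at 61.6 CPM in set 2 and 26.1 CPM in set 3, with ratios of 4.19 and 2.50. That call was lost when marker scores were standardised within each set and when no margin between the area scores was asked for.

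Within the cortex Htr1a was high in layer 5, at 20.3, 21.8, 15.1 and 27.1 CPM, and above layer 2/3, at 12.6, 13.4, 11.0 and 12.0 CPM, in every set beyond counting error. Layer 6b, at 16.0, 18.1, 15.2 and 29.8 CPM, did not differ from layer 5 in this way. After the Lbhd2-rich spots and layer 5 came claustrum, hypothalamic and preoptic, layer 6b and layer 6 spots, none of which stood apart from its neighbour in every set.

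Htr1f, a receptor targeted by triptan drugs, followed the deep cortex. It stood at 4.13, 8.26, 6.09 and 5.57 CPM in layer 2/3, at 18.3, 24.3, 22.6 and 19.2 CPM in layer 4 and at 30.3, 29.9, 31.9 and 32.4 CPM in layer 5. Layer 6 was highest, at 43.6, 42.9, 47.8 and 39.1 CPM. In layer 2/3 set 2 was above set 1 beyond counting error. In all 4 sets layer 6 was above layer 4 and layer 4 above layer 2/3 beyond counting error. The step from layer 5 to layer 6, of 0.667 to 0.830 in ratio, was not beyond it in every set.

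Layer 6b stood at 26.7, 29.1, 38.5 and 22.4 CPM, and layer 6 exceeded it by 1.24 to 1.74 times, beyond counting error in every set. Claustrum spots, at 38.0, 30.9, 38.2 and 39.6 CPM, did not differ from layer 6 beyond counting error in every set. Htr1f was called higher in layers 5, 6 and 6b and in the claustrum, with ratios of 2.64 to 3.27 in layer 6. It was called lower in layer 2/3 and in cholinergic, hypothalamic, thalamic, white matter, ventricle lining and choroid plexus spots. In thalamic spots it stood at 1.49 and 1.46 CPM.

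**Figure D2:**
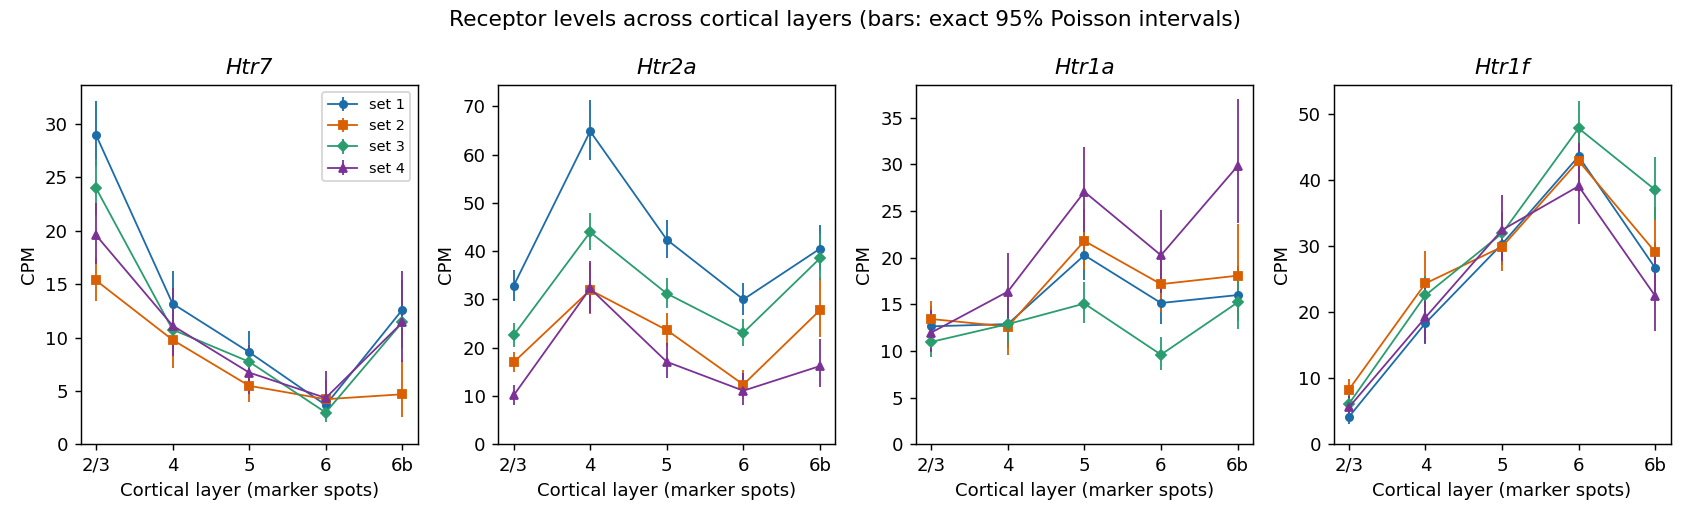
Levels in CPM (vertical axis) of Htr7, Htr2a, Htr1a and Htr1f in the marker spots of cortical layers 2/3, 4, 5, 6 and 6b (horizontal axis), with 1 line per barcode set and exact 95% Poisson intervals as bars. Htr7 is highest in layer 2/3, Htr2a in layer 4 and Htr1f in layer 6 in all 4 sets, while Htr1a has no single highest layer.

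The Gq-coupled pair parted between cortex and choroid plexus. Htr2a, the receptor through which classical psychedelics act, was highest in layer 4, at 64.8, 32.0, 43.9 and 32.3 CPM, with ratios of 1.97 to 2.80 to other spots. Claustrum spots, at 54.0, 31.2, 40.0 and 27.5 CPM, were called higher too and did not differ from layer 4 beyond counting error in every set. These were the only areas in which Htr2a was called higher.

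On either side of layer 4 the Htr2a level was lower. Layer 2/3 stood at 32.8, 17.0, 22.6 and 10.1 CPM and layer 5 at 42.4, 23.7, 31.2 and 17.1 CPM. Layer 4 exceeded layer 6 by 1.90 to 2.91 times. Layer 4 was above each of these 3 layers, and layer 5 above layers 2/3 and 6, in every set beyond counting error. Layer 6b, at 40.5, 27.8, 38.5 and 16.2 CPM, was not below layer 4 in every set in this way. Thalamic spots were called lower, at 2.12 and 0.523 CPM, as were ventricle lining spots, at 1.69 to 5.82 CPM. In the striatum Htr2a stood at 30.3, 11.2, 24.7 and 21.7 CPM with ratios of 1.19, 0.652, 1.05 and 1.89. It was above other spots beyond counting error in sets 1 and 4 and below them in set 2.

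Htr2c, a receptor whose transcript is edited by adenosine deaminases and which is best known from the choroid plexus, was by far highest there. It stood at 610 CPM (interval 590 to 630) in set 1 and 514 CPM (494 to 535) in set 3, against 70.6 and 65.5 CPM in all other spots. The ratios were 8.64 and 7.85, and the 9 choroid plexus spots of set 4, too few for the rule, stood at 645 CPM. These spots held 23.0% of the Htr2c counts of set 1 and 19.5% of those of set 3, from 3.35% and 2.99% of all counts. With spots thinned to 10000 counts, 93.5% and 94.8% of them carried an Htr2c count, against 6.76% to 11.8% of layer 6 spots. Unthinned, the shares were 100% in both sets and 15.5% to 31.8%.

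Outside the choroid plexus Htr2c was a receptor of deep areas. Thalamic spots held 144 and 111 CPM and hypothalamic and preoptic spots 138, 64.5, 125 and 88.3 CPM, and both were called higher, with ratios of 1.71 and 2.58 in the thalamus and 1.62 to 1.94 in the hypothalamus. Lbhd2-rich spots were called higher too, at 102 and 197 CPM. Cholinergic spots reached 109, 102, 139 and 73.4 CPM. The cortex was low: layer 6 stood at 5.87, 9.74, 8.07 and 9.40 CPM, and layers 2/3, 4, 5 and 6 were all called lower. Layer 6b was above layer 6, at 40.2, 14.4, 40.5 and 36.8 CPM. Ventricle lining spots, which lie beside the choroid plexus, held 74.9, 52.8, 99.0 and 41.9 CPM, and the summed level of 9 choroid plexus markers in them was 290 to 827 CPM, with 0 of the 9 markers at 0. The part of these markers in the Htr2c level of that lining was not tested.

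**Figure D3:**
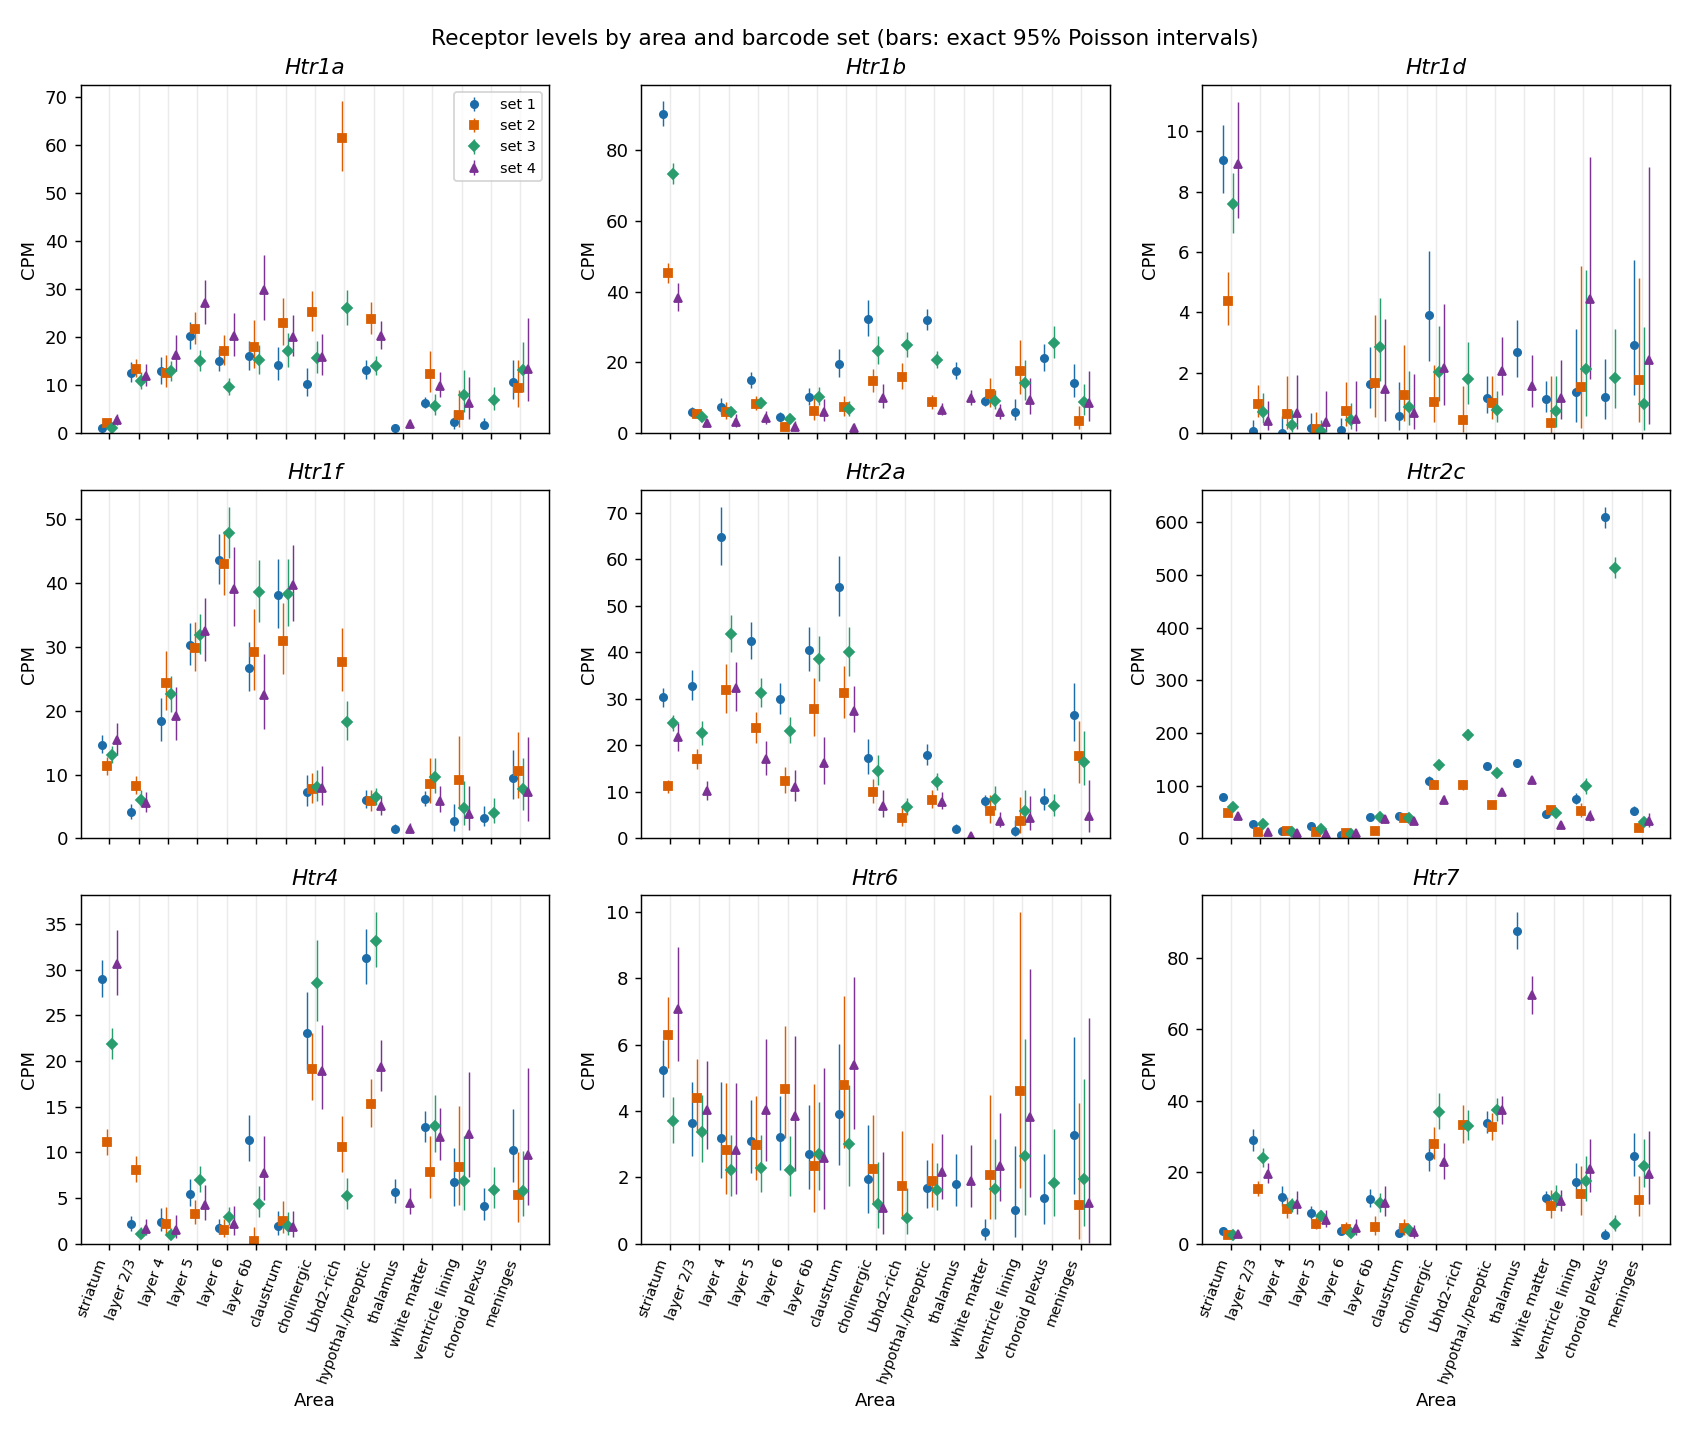
Levels in CPM (vertical axes, 1 panel per receptor with its own scale) in each area of marker spots (horizontal axis), with 1 symbol per barcode set and exact 95% Poisson intervals as bars. Areas with fewer than 30 spots in a set are not drawn. The Htr2c panel is set by the choroid plexus at 610 and 514 CPM, and the Htr7 panel by the thalamus at 87.6 and 69.6 CPM.

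Of the Gs-coupled receptors, Htr6 was called higher in striatal-marker spots, Htr7 in thalamic, hypothalamic and preoptic and Lbhd2-rich spots, and Htr4 in hypothalamic and preoptic and cholinergic spots. Htr6, a receptor known for its place in the striatum, stood at 5.23, 6.30, 3.70 and 7.07 CPM in striatal-marker spots and at 2.23, 3.24, 2.04 and 2.90 CPM elsewhere. The ratios of 2.35, 1.95, 1.81 and 2.44 met the rule in every set. The cortex also held Htr6, at 3.37 to 4.39 CPM in layer 2/3 and 2.99 to 5.40 CPM in claustrum spots. Neither of these differed from the striatum beyond counting error in every set. Thalamic spots, at 1.81 and 1.88 CPM, and Lbhd2-rich spots, at 1.73 and 0.771 CPM, were called lower. The thalamic call rested on 18 to 23 counts per set. It was lost with TMM or RLE scaling, at a fold of 2 and with counts thinned to the shallowest set.

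Htr4, a receptor that promotes transmitter release, stood at 29.0, 11.1, 21.9 and 30.6 CPM in striatal-marker spots. Its ratios were 2.60, 1.46, 2.18 and 3.83, so that the fold of 1.5 was met in 3 sets and missed in set 2, and no call was made. Without set 2 it was called higher, as it was with TMM or RLE scaling, with no margin between area scores and with clusters of spots as areas. Hypothalamic and preoptic spots, at 31.3, 15.3, 33.2 and 19.3 CPM, and cholinergic spots, at 23.0, 19.2, 28.6 and 19.0 CPM, were called higher. These 3 areas were the top of the order for Htr4 and did not differ from each other beyond counting error in every set. White matter came next, at 12.7, 7.89, 12.9 and 11.7 CPM, and lay below cholinergic spots in every set. Htr4 was called lower in layers 4, 5 and 6 and in claustrum, thalamic and choroid plexus spots.

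Htr7, a receptor known from the thalamus and from the control of daily rhythms in the hypothalamus, was highest in thalamic spots, at 87.6 CPM in set 1 and 69.6 CPM in set 4. The ratios were 5.91 and 4.49, and these spots held 31.7% and 34.6% of the Htr7 counts of their sets. Hypothalamic and preoptic spots followed, at 33.9, 32.7, 37.6 and 37.3 CPM, with the 4 sets close together. Thalamic spots exceeded them by 1.86 to 2.59 times. Lbhd2-rich spots, at 33.3 and 33.0 CPM, were called higher too, and cholinergic spots held 24.6, 27.9, 36.9 and 22.7 CPM.

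In the cortex Htr7 ran against Htr1f. It stood at 29.0, 15.4, 24.0 and 19.6 CPM in layer 2/3, at 13.2, 9.78, 10.7 and 11.1 CPM in layer 4 and at 8.63, 5.48, 7.73 and 6.72 CPM in layer 5. Layer 6 held 3.67, 4.22, 2.97 and 4.34 CPM. In all 4 sets layer 2/3 was above layer 4 and layer 4 above layer 5 beyond counting error, whereas the step from layer 5 to layer 6 was not beyond it in every set. Striatal-marker spots were called lower, at 3.49, 2.31, 2.47 and 2.66 CPM, with ratios of 0.114 to 0.156.

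The striatum itself is not uniform, and its spots were ordered from a ventral to a dorsal end by the levels of Crym and Pdyn against those of Cnr1 and Gpr155, not by position. The order was split into 3 groups of near equal size, and the first, called the ventral end, was set against the third, called the dorsal end. Between these ends 1 of 9 receptors was called, Htr2c, higher ventrally, beside 0.944% of all genes called higher and 0.283% called lower. Htr2c stood at 115, 68.9, 92.9 and 67.1 CPM at the ventral end and at 51.9, 29.6, 39.5 and 26.7 CPM at the dorsal end. Every ventral value lay above every dorsal one, and the ratios were 2.22, 2.33, 2.35 and 2.52.

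Markers of neighbouring areas moved along the same order. The summed level of 6 hypothalamic markers was 2.18 to 3.02 times higher at the ventral end, that of 6 ventricle lining markers 1.57 to 2.75 times and that of 9 choroid plexus markers 1.56 to 3.05 times. At that end the choroid plexus markers summed to 117, 126, 133 and 152 CPM, whereas in choroid plexus spots they summed to 5201 and 4980 CPM. The 5 claustrum markers were 1.15 to 1.43 times higher at the ventral end, and the 10 striatal markers stood there at 0.706 to 0.758 of their dorsal level. The part of any of these lists in the Htr2c and Htr2a levels along the order was not tested.

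Htr2a was the next closest to a call, at 42.4, 18.6, 35.8 and 22.7 CPM ventrally and 14.2, 5.61, 17.1 and 15.3 CPM dorsally. The ratios were 2.98, 3.32, 2.10 and 1.48, above 1 beyond counting error in all 4 sets and below the fold of 1.5 in set 4 alone. Without set 4 it was called, which made 2 receptors. Htr4 was 2.47 and 2.06 times higher ventrally in sets 1 and 2, and 1.14 and 0.936 in sets 3 and 4. Htr1b had ratios of 0.882 to 1.07, so Htr1b, highest in the striatum among areas, was near even along it.

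**Figure D4:**
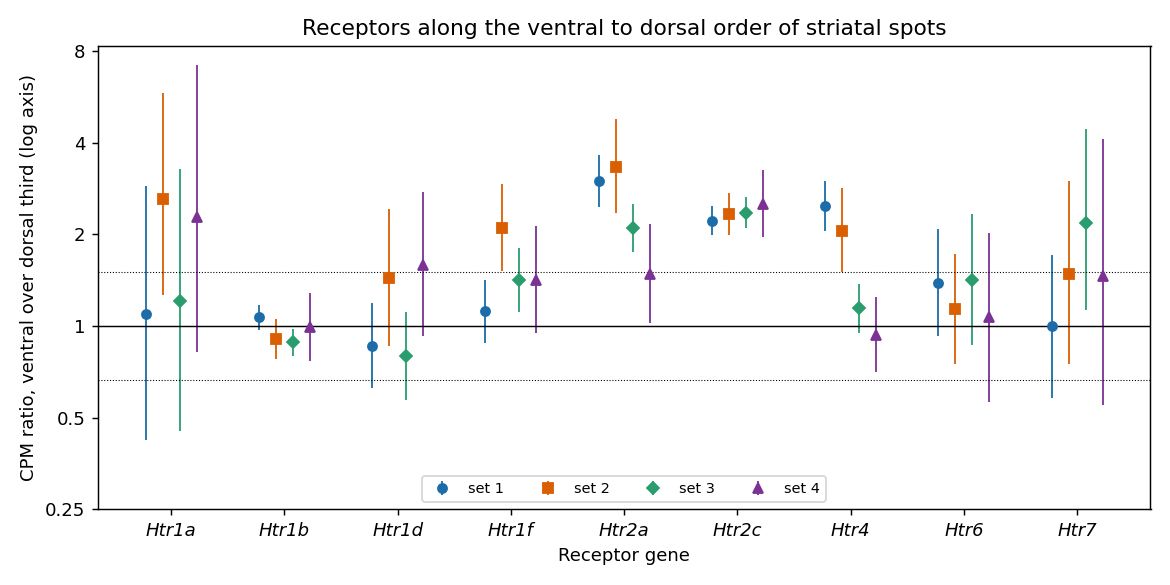
Ratio of CPM at the ventral end to that at the dorsal end of the order of striatal-marker spots, each end being 1 of 3 groups of near equal size (vertical axis, log scale) for each receptor (horizontal axis), with 1 symbol per barcode set and exact conditional 95% intervals as bars. Dotted lines mark 1.5-fold. Htr2c lies between 2.22 and 2.52 in the 4 sets, and Htr1b stays near 1.

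The level of a receptor also differed between the barcode sets. In whole sections 7 of 9 receptors had a highest set at least 1.5 times the lowest, beside 46.2% of all genes. Htr1b had the widest range, 28.7, 16.0, 24.1 and 9.28 CPM. Htr2a stood at 26.3, 15.9, 23.8 and 12.6 CPM and Htr2c at 88.6, 41.7, 78.9 and 50.0 CPM, so that sets 1 and 3 were above sets 2 and 4 for all 3 of these. Htr1a and Htr6 ran the other way, at 10.4, 16.7, 11.2 and 14.0 CPM and at 2.72, 3.87, 2.35 and 3.35 CPM. Without set 2 the count fell from 7 to 3, and the share of all genes without it is not given here. Sets 1 and 3 also held the most counts, 174761560 and 165185177, and with all sets thinned to the total of set 4 the count was 8. Such thinning leaves the expected CPM as it was, so it cannot show the part of depth, which was not tested.

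The sets held different shares of each area, and the part of this in the whole-section levels was not tested. Striatal-marker spots made up 18.4%, 23.0%, 21.7% and 12.0% of the kept spots of sets 1 to 4. With the choroid plexus spots left out Htr2c stood at 70.6, 41.7, 65.5 and 48.5 CPM, and sets 1 and 3 were still the highest. No other area was left out in this way. Within striatal-marker spots 8 of 9 receptors had a 1.5-fold range, beside 49.1% of all genes, and Htr1f alone did not, at 14.7, 11.3, 13.1 and 15.4 CPM. Without set 2 this count fell from 8 to 4, again with no share of all genes given here. As the sets are 1 library each, a library and a mouse cannot be told apart, and no set is tied to a genotype.

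**Figure D5:**
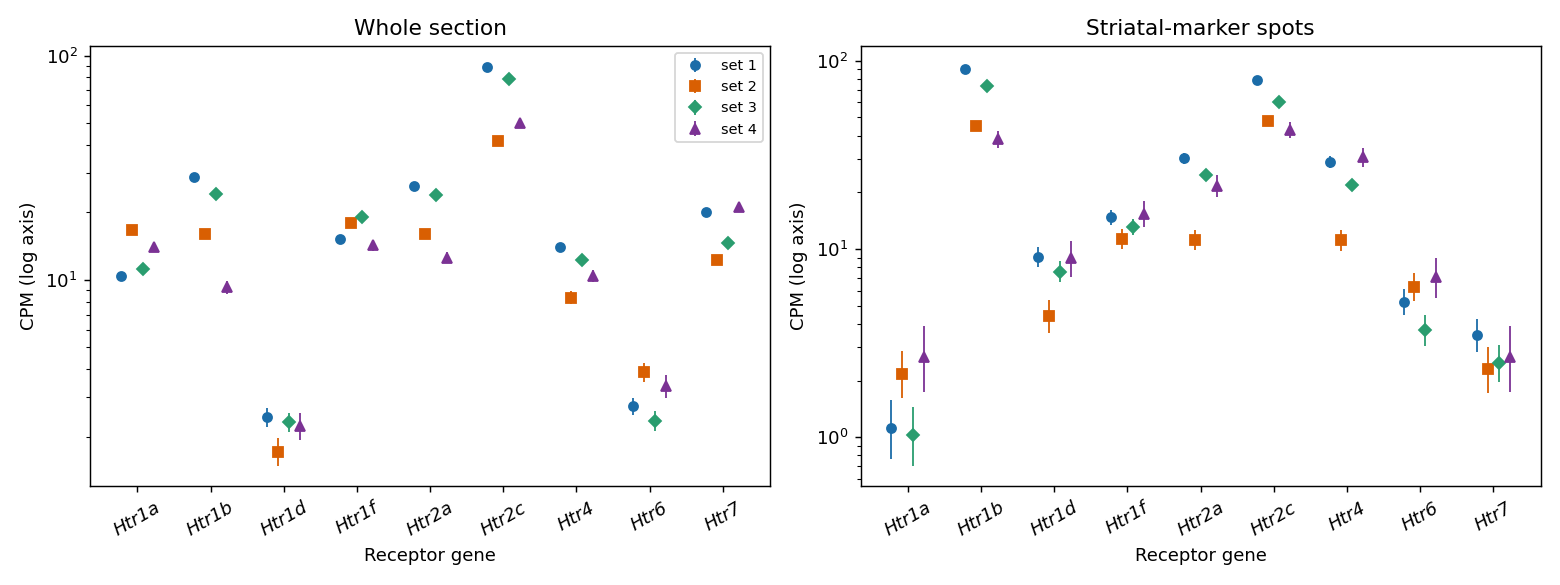
Level of each receptor (horizontal axis) in CPM on a log axis (vertical) in the whole section (left) and in striatal-marker spots (right), with 1 symbol per barcode set and exact 95% Poisson intervals as bars. Sets 1 and 3 are highest for Htr1b and Htr2c in both panels, while Htr1a and Htr6 are highest in sets 2 and 4.

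Among genes that mark the serotonin-making neurons of the brainstem raphe, Tph2 held 117 to 245 counts per set and Slc6a4 10 to 54. Of 7 genes for synthesis, transport and breakdown, Tph2, the rate-limiting enzyme of serotonin synthesis in neurons, stood at 1.29 to 1.68 CPM in whole sections and the serotonin transporter Slc6a4 at 0.0572 to 0.595 CPM. Both Ddc, which makes serotonin and dopamine from their precursors, and the vesicular transporter Slc18a2 were called lower in the striatum, 2 of 5 tested beside 15.1% of all genes, and higher in hypothalamic and preoptic spots, again 2 of 5 beside 6.78%. Maob, a monoamine oxidase, was called higher in thalamic spots, with ratios of 5.88 and 7.17, as well as in ventricle lining and choroid plexus spots.

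Of the other serotonin receptors, 3 of 5 passed the minimum level. Htr5a was called higher in layer 4, with ratios of 1.73 to 2.20, and Htr3a, the ion channel of the family, in layer 2/3, with ratios of 2.49 to 5.49. Both were called lower in the striatum. Htr2b stood at 0.149 to 0.628 CPM and Htr3b at 0.286 to 0.837 CPM in whole sections.

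Among 15 transducers and partners, 3 were called higher and 5 lower in striatal-marker spots, beside 5.76% and 15.1% of all genes. Those higher were Gnal, the striatal Gs-like alpha subunit, at ratios of 4.97 to 5.52, the adenylyl cyclase Adcy5 at 7.26 to 9.03 and the phospholipase Plcb1 at 1.88 to 2.21. Gnas, the general Gs alpha subunit, was called lower, at 423 to 496 CPM in striatal-marker spots against 1457 to 1908 CPM in whole sections. Gnai1, Plcb4, S100a10 and Mpdz were called lower too. The median log2 ratio of the list was -0.55, beside -0.13 over all genes tested. For the 9 receptors it was 0.16. Adarb1, one of the adenosine deaminases that edit RNA, was called lower in choroid plexus spots, at 0.377 and 0.394, where Htr2c was highest.

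The genes whose levels over areas and sets ran most like each receptor were ranked by Pearson r over 54 area-by-set profiles, among 10064 genes that were neither receptors of this set nor area markers. The profiles share 4 libraries and their depths, so the r values are a description. Htr1b was most like Spock3 (0.84), Zswim5 (0.83) and Gnal (0.82), and Htr1d most like Syndig1l (0.83), Fam102b (0.81) and Rasgrp2 (0.78). For Htr1f they were Hs3st2 (0.90), Sstr4 (0.88) and Sstr2 (0.85), and for Htr1a Frmpd3 (0.87), Rhof (0.80) and Trhde (0.80). Htr2a ran with Il34 (0.88), Rab15 (0.86) and Pcdh7 (0.85), and Htr2c with Efcab1 (0.81), Gtf2ird1 (0.80) and Dchs2 (0.80). Htr4 was most like Rhbdl3 (0.83), Gad2 (0.82) and Klhl13 (0.82), Htr6 like Ccsap (0.79), Zfyve28 (0.78) and Ctxn1 (0.78), and Htr7 like Calb2 (0.83), Kcnip1 (0.82) and Kcnk10 (0.82).

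Between the receptors themselves the highest r over the same profiles was that of Htr1f and Htr2a, at 0.68. Htr1b followed, with 0.66 to both Htr2c and Htr4 and 0.65 to Htr1d. The lowest was that of Htr1f and Htr7, at -0.63.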

How the data were processed

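The authors deposited 1 table of raw counts of probe reads per gene and spot, and Space Ranger and Seurat are named in the submitters' processing notes. The build, the probes and whether spots were filtered are not given in the sources used here. All values were whole numbers of at least 0. Sections were 1 per mouse, and the set endings match no sample label. Of the barcodes, which mark positions on a slide, 1613 of 4744 occurred in all 4 sets.

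Spots under 500 counts were left out, which removed 1. A spot was given the area with the highest mean z score of log counts per 10000 over the area's marker genes, if it was at least 0.5 and exceeded the next by 0.25. Of the kept spots, 1524 lay within 0.1 of a threshold. Counts were summed per area and set. The planned rule for named genes covered the 9 receptors, 3 fixed pathway lists and the 3 genes most like each receptor. Etv1, of the layer 5 list, and Fev were not analysed here. Members, lists and rules were chosen with earlier results of these data known. Only the rule for calls was tested on simulated data, for the striatum and the claustrum, with known changes and counting error alone. The other steps were not tested in this way. Python 3.11.15, numpy 2.4.6, scipy 1.17.1, scanpy 1.11.5 and leidenalg 0.10.2 were used, with edgeR 4.0.16 in R 4.3.3 for TMM and RLE factors only. Alternatives changed the area rule, scaling, fold, filters, depth and sets.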

Additional observations from a re-analysis of the deposited data

How the results depend on the processing

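Of 62 calls, 33 were kept under every one of the 16 alternatives in which they could be computed, 29 were lost under at least 1 and 0 changed direction. At a fold of 2, 8 pairs of a receptor and an area were called higher in place of 19, and 3 and 5 receptors had such a range over the sets in whole sections and striatal spots in place of 7 and 8. Asking for no margin between area scores raised the receptors called along the striatal order from 1 to 2. Leaving out 1 set at a time gave 15 to 18 pairs called higher and 33 to 46 called lower, 1 to 2 receptors along the order, 3 to 7 with a 1.5-fold range in whole sections and 4 to 8 in striatal spots. The rule asks for every set with enough spots, so leaving a set out could not lose a call that could still be computed. None was lost in these 4 runs, and neither they nor the changes of gene filter could lower the 33 kept. Areas left with 1 set dropped out, so that 126 to 135 of 144 comparisons remained. In the Lbhd2-rich spots the calls of Htr1a, Htr2a, Htr6 and Htr7 were lost with scores standardised within sets and with no margin, and that of Htr2c was not. Ratios moved by scaling alone: in striatal spots TMM raised all log2 ratios by 0.10 to 0.17 and RLE by 0.17 to 0.22, in cortical layers 2/3 to 6 by up to 0.23, and in the ventricle lining TMM moved them by -0.31 to -0.27 and RLE by -0.29 to -0.18. In the other areas they moved by -0.15 to 0.19. No call changed direction with either. The factors of the 4 whole sections spanned 0.25 on the log2 scale with TMM. With Leiden clusters as areas 50 pairs were called lower in place of 42. Shares of all genes under the alternatives are not given here, so these changes are not set against them. No paired analysis was possible because no barcode set bears a replicate number or a sample name. Depth limits levels that rest on few counts, such as the 1 to 2 counts of Htr1d in layer 5.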

Other observations

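Htr4 was low in the layer 2/3 spots of sets 1, 3 and 4, at 2.11, 1.08 and 1.65 CPM, and higher in set 2, at 8.06 CPM. In set 2, 15 of 308 such spots held 3 or more Htr4 counts and together 77 of the 125 counts, with up to 8 in a spot. In the other sets 0 spots held as many. Beside this, the summed level of the striatal markers in these spots was 1285 CPM in set 2 against 478 to 667 CPM in the others, and that of the choroid plexus markers 39.9 CPM against 5.99 to 10.3 CPM. Their part in the Htr4 level was not tested.

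Spots with hippocampal markers reached 30 only in set 4, with 71. There Htr7 stood at 20.5 CPM, Htr2c at 34.0 CPM and Htr1a, a receptor known from the hippocampus, at 5.03 CPM from 12 counts. The leading genes of these spots were not examined. Spots without an area held 20.1% to 29.6% of the Htr1a counts of each set.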
